A study of Danio rerio with 13 samples.

Results

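The TGF-beta and BMP signaling genes of zebrafish ZF4 cells were examined at 28°C and in the cold. They were chosen by annotation only: a gene entered when its KEGG pathway annotation in the RNA table held the TGF-beta signaling map (ko04350) and none of the cell cycle (ko04110), regulation of actin cytoskeleton (ko04810) or ECM-receptor interaction (ko04512) maps. The rule found 62 of the 32677 genes of the RNA table, out of 110 genes on the pathway map, and 285 of the 160561 methylation peaks were assigned to 50 of these 62 genes. No expression or methylation value entered the rule, though the pathway genes were chosen with earlier results of these data known.

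ZF4 is an established fibroblast line made from zebrafish embryos, and its usual culture temperature is 28°C. The 28°C group was the control, and the cold groups spent 5 days (18°C /5d) or 30 days (18°C /30d) at 18°C in the same medium, with no other agent or genetic change in any group. The study asked how DNA methylation varies when the cells acclimate to cold. RNA was sequenced from 3 libraries per condition (9 in all), and each condition had 1 library of methylated DNA immunoprecipitation sequencing (MeDIP-seq), made from the pooled DNA of 3 cultures. All values come from 1 cell line, so they describe cultures of that line and not the tissues of a fish.

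In this pathway, ligands of the TGF-beta family bind paired type I and type II receptor kinases, which phosphorylate receptor Smad proteins. These enter the nucleus with a common Smad and switch genes on or off, and among the best known BMP-responsive genes are the id genes, which encode inhibitors of DNA-binding transcription factors. The signal is limited outside the cell by secreted proteins that trap ligands, such as chordin and noggin, and inside the cell by inhibitory Smads and the Smurf ubiquitin ligases. In fibroblasts the TGF-beta branch is known for driving matrix production.

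Total counts were 37509447 to 44853311 in the replicate 1 and 2 RNA libraries and 21407769 to 22504969 in the replicate 3 libraries. The replicate 3 libraries also stood apart in composition, since their most abundant gene took 7.25% to 7.77% of the counts, against 0.652% to 1.42% in the other 6. Replicate numbers recur in every condition, and libraries with the same number deviated together from their group means, so a second fit with the replicate number as a block is given wherever it changes a call. Numbers 1 and 2 were less clearly told apart from each other than either was from number 3. Of the fibroblast markers, 12 of 14 symbols were found (14 genes), and 10 of the 14 genes were above 1 RPKM at 28°C. The genes col1a1a, col1a2, col5a1 and prrx1a were all above 90 RPKM there. Below 1 RPKM were, among others, vim and dcn (0.083 RPKM), the second also a gene of this pathway set. Summed normalised CPM (counts scaled to library size) of the 14 genes were 5524 to 10953 at 28°C, 5605 to 7862 after 5 days and 4815 to 8562 after 30 days. Epithelial markers krt8 and cdh1 were also read, and the 7 epithelial markers summed to 1062 to 2195 CPM over the 9 libraries, with epcam listed at 0 at 28°C. Muscle markers (7 genes) summed to 36.0 to 87.8 CPM, neural (5 genes) to 0.981 to 21.3, blood and immune (6 genes) to 1.62 to 23.1 and endothelial (3 genes) to 0.156 to 3.95, with sox10 and cdh5 at 0 in every library. The 4 pigment markers summed to 19.4 to 29.3 CPM at 28°C and to 29.1 to 78.6 CPM after 30 days. Whether any of these markers had a part in the results was not tested.

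At the level of RNA, 3 of the 55 genes tested were called after 30 days in the fit with the replicate block, where 1.51% of all genes tested were called, and none in the fit without it, where 0.0612% were. Among the 3 was the activin subunit gene inhbb, which rose and was higher in every cold library than in every 28°C library. The Nodal antagonist gene lft2 was also called higher, but it was kept by the filter on low counts only because of its reads in the cold libraries, so a higher value there was built into its being tested. The receptors, Smads, BMP and GDF ligands and id genes did not pass the test in either fit. Methylation peaks of these genes were called about as often as peaks elsewhere.

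Of the 62 genes, 55 had enough reads to be tested. Those left out were gdf5, ndr1, lft1, nog2, tnfa, ifng1 and a short zfyve9-like gene (ENSDARG00000087295). Of the 55, lft2, bmp6 and id4 passed the filter on low counts through the cold libraries alone. For others, such as amh, dcn, bmp7a and bmp5, not every 28°C library reached the filter, so they too needed cold libraries to be tested. By edgeR's quasi-likelihood test without a block, 0 of the 55 genes had a Benjamini-Hochberg adjusted p under 0.05 after 5 days, where 0% of the 19622 genes tested were called. After 30 days it was again 0 of 55, against 0.0612% of all genes tested. Without adjustment, 9 of the 55 had p under 0.05 after 5 days (7 higher and 2 lower) and 12 after 30 days (10 higher and 2 lower), beside 11.3% and 13.7% of all genes tested. With the replicate block, edgeR called 0 of the 55 after 5 days, where 0.26% of all genes were called, and 3 after 30 days (2 higher and 1 lower), where 1.51% were called. Unadjusted p in that fit was under 0.05 for 14 and 13 of the 55, beside 16.8% and 19.8% of all genes. DESeq2 called 2 pathway genes after 5 days (2.61% of the genes it adjusted) and 5 after 30 days (4.36%). Between the cold times no pathway gene was called by edgeR without or with the block (0% of all genes in both) or by DESeq2 (0.00761% of all genes), and 0 of the 55 had an unadjusted p under 0.05 in either edgeR fit, beside 1.28% of all genes without the block and 2.53% with it. No change given here is therefore shown to differ between the cold times. Besides the called genes and the most abundant gene of each role, the genes given library by library were chosen after their values were seen.

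The median log2 fold change of the 55 genes was 0.18 after 5 days and −0.07 after 30 days, and over all genes tested it was −0.01 at both times. Leaving out the third 28°C library moved the median of the 55 to 0.33 at each time. After 5 days, 19 of the 55 genes (34.5%) were higher in all 3 ratios taken within a replicate number, beside 22% of all genes tested. Lower in all 3 were 6 (10.9%), beside 18.9%. After 30 days 16 were higher (29.1%, beside 22%) and 7 lower (12.7%, beside 18.6%). The higher genes include lft2 and bmp6 at both times and id4 after 30 days, which were tested only because of their reads in the cold. Among others, amh and bmp7a at both times and dcn after 30 days also needed cold libraries to pass the filter on low counts. The higher counts are therefore a description and are not read against the share of all genes. Both times were compared with the same 28°C libraries.

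**Figure D1:**
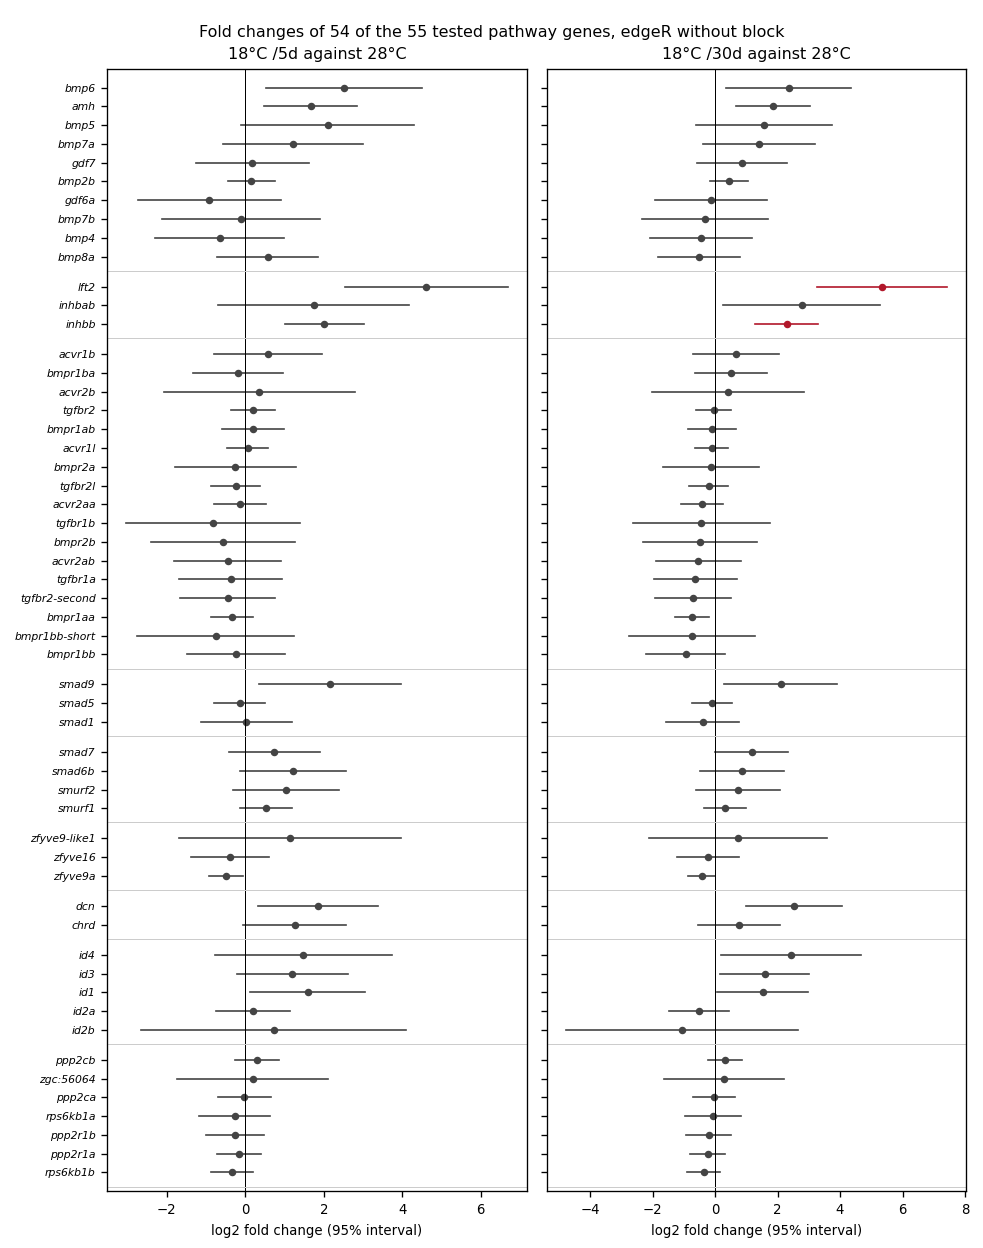
Log2 fold change against 28°C (x axis) of 54 of the 55 tested pathway genes (rows, grouped by role with lines between roles), with 95% intervals, from edgeR without a block. Red marks an adjusted p under 0.05 in the fit with the replicate block, seen here for lft2 and inhbb after 30 days; most receptor and phosphatase genes lie near 0.

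The activin, nodal and lefty ligands held the largest log2 fold change of the 55 genes, that of lft2, which was tested only because of its reads in the cold. The gene inhbb (ENSDARG00000040777) encodes the activin and inhibin beta B subunit, a ligand that signals through activin receptors. Its normalised counts were 14.9, 24 and 16.5 CPM in the 3 libraries at 28°C, 96.1, 89.0 and 38.2 CPM after 5 days, and 118, 104 and 48.6 CPM after 30 days. All 6 cold libraries lay above all 3 libraries at 28°C, and within each cold group the third library was the lowest. Within replicate numbers inhbb was 6.46, 3.70 and 2.32 times its 28°C value after 5 days, and 7.93, 4.33 and 2.95 times after 30 days. The log2 fold change was 2.01 ± 0.44 (SE, 3 libraries per group) after 5 days (edgeR adjusted p = 0.167) and 2.29 ± 0.45 after 30 days (adjusted p = 0.0926). With the block it was 1.89 ± 0.30 (adjusted p = 0.0563) and 2.18 ± 0.31 (adjusted p = 0.0272), so only the 30 day value passed. In these bulk libraries a change in the number of cells that express a gene and a change in its RNA per cell cannot be told apart. Per length, inhbb went from 6.11 ± 1.62 RPKM at 28°C (SD, n = 3) to 24.6 ± 10.5 after 5 days and 29.9 ± 12.2 after 30 days, and in the cold it had the highest mean of the 11 BMP and GDF and 5 activin, nodal and lefty ligands. It overlapped the next ligand, bmp2b, at both cold times, with a lowest library of 12.6 RPKM for inhbb and a highest of 14.5 RPKM for bmp2b after 5 days, and of 16.1 and 17.6 RPKM after 30 days.

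The gene lft2 (ENSDARG00000044059) encodes a lefty protein, a secreted antagonist of Nodal signaling that is itself a known Nodal target in the embryo. It was almost silent at 28°C, with 1, 2 and 0 reads in the 3 libraries. It passed the filter on low counts through the cold libraries alone, so a higher value there was built into its being tested. After 5 days it had 31, 34 and 15 reads, and after 30 days 41, 14 and 55 reads. In normalised counts this was 0.0260, 0.0472 and 0 CPM at 28°C, 0.819, 0.780 and 0.680 CPM after 5 days, and 1.11, 0.352 and 2.35 CPM after 30 days. The groups did not overlap, and the spread was narrow at 5 days and wide at 30 days. The pooled ratio to 28°C was 27 after 5 days (95% exact binomial interval 8.92 to 134) and 38.5 after 30 days (12.8 to 189), where the intervals cover counting error only. The adjusted p was 0.147 after 5 days and 0.0839 after 30 days in edgeR without a block, and 0.0812 and 0.0461 with it. These calls were not held when a replicate number was left out, since the block fit then called 0 of the 55 genes at each cold time for any number left out. Even in the cold lft2 remained a rare transcript, at 0.577 ± 0.0543 RPKM after 5 days and 0.965 ± 0.763 RPKM after 30 days.

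The other activin subunit gene, inhbab (ENSDARG00000024759, beta A), split by replicate. It was read at 1.84, 2.01 and 1.12 CPM at 28°C, 1.64, 1.47 and 13.8 CPM after 5 days, and 1.14, 11.2 and 22 CPM after 30 days. The high values were in replicate 3 at 5 days and in replicates 2 and 3 at 30 days, while replicate 1 was slightly lower in the cold. Its log2 fold change of 2.77 ± 1.11 after 30 days had an adjusted p of 0.322. The nodal gene ndr1 and lft1 were below 0.1 RPKM in each group mean and were not tested.

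**Figure D2:**
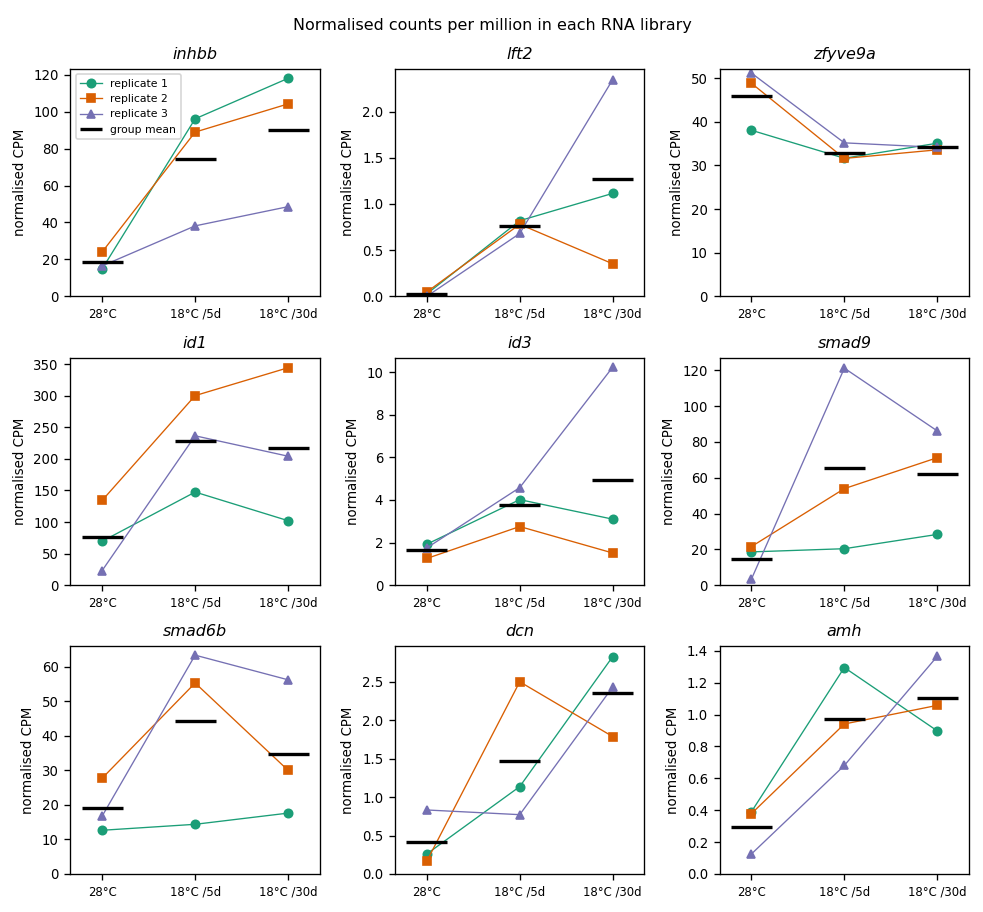
Normalised CPM (y axes, linear from 0) in each of the 9 RNA libraries for 9 pathway genes; lines join libraries with the same replicate number and black bars are group means. All 6 cold libraries lie above the 28°C libraries for inhbb, lft2 and amh and below them for zfyve9a, and replicate 3 shows the largest relative steps for smad9 and id1.

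Among the 11 BMP and GDF ligands, 10 were tested and none was called in either edgeR fit. The most abundant was bmp2b, a ventralising BMP in the zebrafish embryo, at 11.5 ± 3.31 RPKM at 28°C, 12.8 ± 2.33 after 5 days and 15.7 ± 1.85 after 30 days. It stood above bmp4, the next ligand, at 2.22 ± 2.38 RPKM, without overlap at 28°C, and the other 9 were below 1 RPKM. The log2 fold changes of the 10 ranged from −0.91 to 2.50 after 5 days and from −0.51 to 2.36 after 30 days.

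The gene amh (ENSDARG00000014357) encodes anti-Müllerian hormone. It gave 0.390, 0.378 and 0.125 CPM at 28°C, 1.29, 0.941 and 0.681 CPM after 5 days, and 0.897, 1.06 and 1.37 CPM after 30 days. The cold and 28°C libraries did not overlap at either time, at levels of 3 to 49 reads per library. The log2 fold change was 1.67 ± 0.52 after 5 days (edgeR adjusted p = 0.282) and 1.85 ± 0.53 after 30 days (adjusted p = 0.173). DESeq2 called the 30 day value (adjusted p = 0.0263). For bmp6, a further BMP ligand, the reads were 4, 2 and 0 at 28°C, 17, 18 and 2 after 5 days, and 10, 11 and 8 after 30 days. It was tested only because of its reads in the cold, and its 30 day edgeR adjusted p was 0.289. In contrast bmp4 held 1 high value at 28°C, with 4.39, 3.28 and 22.3 CPM there, against 2.68 to 8.62 CPM after 5 days and 4.66 to 8.76 CPM after 30 days.

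All 17 receptor genes were tested and none passed in either fit. The 17 hold a 246-base bmpr1bb entry as well as a longer one. Best protein matches were at 50% identity for a second tgfbr2 gene and 76% for acvr2ab. At 28°C 15 of the 17 were above 1 RPKM, and the same number at both cold times. The most abundant was tgfbr2, the type II TGF-beta receptor that first binds the ligand, at 58.6 ± 1.41 RPKM at 28°C, 67.3 ± 11.5 after 5 days and 56.9 ± 9.89 after 30 days. No other receptor overlapped it at 28°C, where the next were the type I BMP receptors bmpr1aa (16.4 ± 2.51 RPKM) and bmpr1ab (15.2 ± 2.64 RPKM), which overlapped each other. Median log2 fold changes over the 17 were −0.25 after 5 days, with 5 above 0 and 12 below, and −0.41 after 30 days, with 3 above 0 and 14 below. In the fit with the block these medians were −0.14 and −0.19.

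Of the receptors, bmpr1aa had the lowest unadjusted p. It was read at 72.0, 96.4 and 93.8 CPM at 28°C, 71.5, 80.8 and 55 CPM after 5 days, and 61.0, 45.4 and 52.1 CPM after 30 days. Groups overlapped at 5 days and did not at 30 days, where the log2 fold change was −0.73 ± 0.24 (edgeR adjusted p = 0.228). The type I TGF-beta receptor tgfbr1b was carried at 28°C by a single library, with 1.19, 2.98 and 19.6 CPM. Its log2 fold change of −0.81 after 5 days had an SE of 0.98, against −0.26 ± 0.58 in the fit with the block.

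The receptor Smads of the BMP branch are smad1, smad5 and smad9. None of the 3 was called. For smad1 the values were 37.0 ± 11.9 RPKM at 28°C, 37.8 ± 19.3 after 5 days and 28.0 ± 15.5 after 30 days, with 95% intervals of the log2 fold change from −1.13 to 1.19 and from −1.57 to 0.76. For smad5 the level was 18.4 ± 5.81 RPKM at 28°C, and its 95% intervals against 28°C ran from −0.80 to 0.51 after 5 days and from −0.75 to 0.56 after 30 days on the log2 scale. For smad9 the libraries gave 18.6, 21.5 and 3.29 CPM at 28°C, 20.3, 53.9 and 121 CPM after 5 days, and 28.3, 71.2 and 86.1 CPM after 30 days. All 3 30 day libraries exceeded those at 28°C, but the ratio within replicate 3 (36.9 at 5 days) was far from that within replicate 1 (1.1). Its log2 fold changes of 2.17 ± 0.80 and 2.09 ± 0.80 had edgeR adjusted p of 0.347 and 0.298.

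The 4 intracellular inhibitors, smad6b, smad7, smurf1 and smurf2, had positive log2 fold changes at both times, and none was called. Smad6 and Smad7 proteins block receptor Smad activation, and Smurf proteins mark Smads and receptors for degradation. Their log2 fold changes were 0.54 to 1.22 after 5 days and 0.32 to 1.17 after 30 days, with unadjusted p from 0.0512 to 0.308 over both times. The most abundant was smurf2, at 11.7 ± 2.28 RPKM at 28°C, 23.9 ± 17.7 after 5 days and 19.5 ± 12 after 30 days. For smad6b the libraries read 12.6, 27.7 and 16.8 CPM at 28°C, 14.4, 55.3 and 63.4 CPM after 5 days, and 17.6, 30.0 and 56.2 CPM after 30 days. Every cold library of smad6b exceeded the 28°C library of its own number, from 1.08-fold to 3.78-fold, while the groups overlapped. For smad7 the 28°C libraries were tight, at 5.74, 6.99 and 5.99 CPM, and the cold ones were spread from 4.97 to 15.1 CPM after 5 days and from 5.87 to 23 CPM after 30 days. With the block the adjusted p of these 4 genes was 0.214 to 0.476, over both times.

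Smad anchors hold Smads at the receptor on endosomes. The most abundant, zfyve9a (the gene for SARA), was read at 38.0, 48.8 and 51.1 CPM at 28°C, 31.6, 31.6 and 35.2 CPM after 5 days, and 35.1, 33.6 and 34.1 CPM after 30 days. The cold libraries all lay below the 28°C libraries, and the difference was small, at −0.49 ± 0.19 (edgeR adjusted p = 0.383) and −0.43 ± 0.19 (adjusted p = 0.379) on the log2 scale. The related gene zfyve16 was at 3.78 ± 1.28, 2.88 ± 1.34 and 3.21 ± 1.57 RPKM in the 3 conditions. A pair of short zfyve9-like genes, which the annotation matched to zfyve9 at 54% and 51% protein identity, were below 0.2 RPKM in each group mean.

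**Figure D3:**
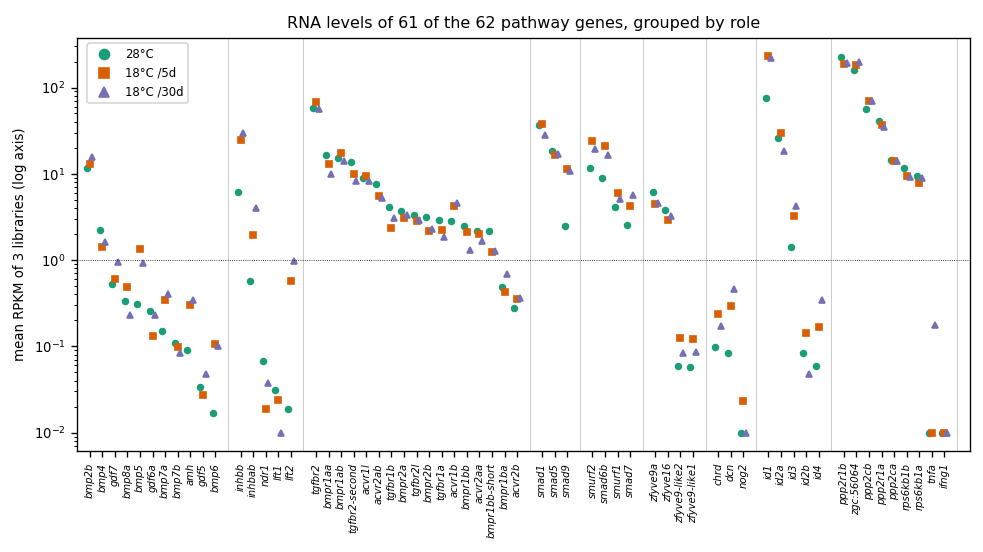
Mean RPKM of the 3 libraries per condition (y axis, log scale, dotted line at 1) for 61 of the 62 pathway genes, ordered within each role by the 28°C mean; means under 0.01, such as those of ifng1 and of tnfa at 28°C, are drawn at 0.01. Receptors, Smads and phosphatase subunits lie mostly above 1 RPKM, and ligands and extracellular antagonists mostly below.

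Secreted antagonists on the map were rare. The ligand-trapping genes chrd (chordin) and dcn (decorin, a matrix proteoglycan that binds TGF-beta) were below 0.5 RPKM in each group mean, and nog2 had 3 reads in all 9 libraries. For dcn (ENSDARG00000012066) the reads were 10, 7 and 20 at 28°C, 43, 109 and 17 after 5 days, and 104, 71 and 57 after 30 days. In normalised counts dcn was 0.260, 0.165 and 0.832 CPM at 28°C, 1.14, 2.50 and 0.771 CPM after 5 days, and 2.83, 1.79 and 2.43 CPM after 30 days. The groups overlapped at 5 days through replicate 3 and not at 30 days. At 28°C only the third library reached the filter on low counts, so dcn needed cold libraries to be tested. The log2 fold change after 30 days was 2.52 ± 0.69 (edgeR adjusted p = 0.165, with the block 0.101), and DESeq2 called it (adjusted p = 0.00983).

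The id genes did not pass either edgeR fit. The most abundant of the group, id1, was at 76.1 ± 56.1 RPKM at 28°C, 229 ± 77.2 after 5 days and 218 ± 122 after 30 days. Its libraries were 69.5, 134 and 23.2 CPM at 28°C, 147, 300 and 237 CPM after 5 days, and 102, 344 and 204 CPM after 30 days. Every cold library of id1 exceeded the 28°C library of its own number, from 1.47-fold to 10.2-fold, and the groups overlapped at 30 days. The log2 fold changes were 1.59 ± 0.65 and 1.52 ± 0.65 (edgeR adjusted p = 0.397 and 0.348), and 1.72 ± 0.47 and 1.55 ± 0.47 with the block (adjusted p = 0.139 and 0.130). DESeq2 with the replicate number as a term called id1 at both times (adjusted p = 0.00565 and 0.0123). That fit called 4 pathway genes after 5 days and 6 after 30 days, beside 5.7% and 8.26% of all genes. For id3 the values were 1.92, 1.25 and 1.75 CPM at 28°C, 4.02, 2.75 and 4.58 CPM after 5 days, and 3.10, 1.51 and 10.2 CPM after 30 days. All 3 libraries of id3 at 5 days lay above 28°C, and its adjusted p was 0.523 after 5 days and 0.318 after 30 days. By contrast id2a, the other abundant id gene, had log2 fold changes of 0.20 ± 0.42 and −0.52 ± 0.42, and id2b and id4 stayed below 0.4 RPKM in each group mean.

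**Figure D4:**
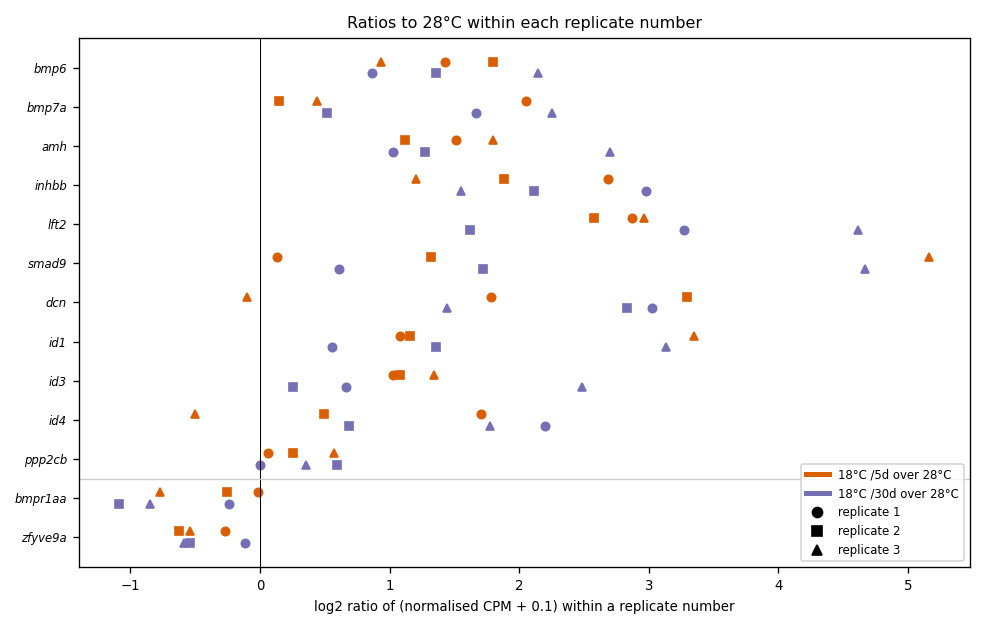
Log2 ratio of normalised CPM (plus 0.1) to the 28°C library of the same replicate number, for 13 tested pathway genes whose libraries at 1 or both cold times did not overlap those at 28°C; colors mark the cold time and symbols the replicate number. The 11 genes above the line were higher and bmpr1aa and zfyve9a below it lower, and replicate 3 lies far to the right for smad9 and id1.

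The phosphatase, kinase and cytokine genes of the map include its most abundant members. The scaffold subunit of protein phosphatase 2A, ppp2r1b, was at 224 ± 62.3 RPKM at 28°C, 187 ± 20.4 after 5 days and 194 ± 35.9 after 30 days. Of the 7 genes tested none was called, and the log2 fold changes lay between −0.35 and 0.30 after 5 days and between −0.37 and 0.32 after 30 days. The catalytic subunit gene zgc:56064 was low in replicate 3 of every condition, with 189, 182 and 152 CPM in the third library of the control, 5 day and 30 day groups and 609 to 1087 CPM in the other 6. The cytokine gene tnfa, which was not tested, had no read at 28°C or 18°C /5d and 2, 10 and 6 reads after 30 days. With 3 reads in place of the 0 over the 28°C group, it would be 6.30-fold higher after 30 days. That value covers counting error at 28°C only and not the spread between libraries. The interferon gene ifng1 had no read in any library.

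Groups that did not overlap are listed here beside the share over all genes. After 5 days, 6 of the 55 tested genes lay wholly above 28°C (amh, id1, id3, inhbb, lft2 and ppp2cb), against 9.27% of all genes tested, and 2 wholly below (zfyve9a among them), against 8.35%. After 30 days, 8 lay wholly above (amh, bmp6, bmp7a, dcn, id4, inhbb, lft2 and smad9), against 10.3%, and 3 wholly below (bmpr1aa and zfyve9a among them), against 8.5%. These counts correspond to 10.9% and 3.64% of the 55 genes at 5 days and 14.5% and 5.45% at 30 days. Of the genes listed as higher, lft2, bmp6 and id4 were tested only because of their reads in the cold. Not every 28°C library of amh, bmp7a and dcn reached the filter on low counts, so they too needed cold libraries to be tested. For these reasons the higher counts are a description and are not read against the share of all genes.

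Genes around this set were read in the same fits. Of all genes tested, these fits called 0% after 5 days and 0.0612% after 30 days without the block, and 0.26% and 1.51% with it. The 48 other genes of the pathway map, which share the cell cycle, actin or matrix maps, had 41 tested genes, 0 called without the block and 1 called with it, after 30 days. That gene was tgfb1a, the TGF-beta ligand, at 25.9, 22.6 and 54.4 CPM at 28°C, 52.2, 64.4 and 241 CPM after 5 days, and 75.9, 121 and 273 CPM after 30 days. With the block its log2 fold change was 1.55 ± 0.26 after 5 days (adjusted p = 0.0609) and 2.09 ± 0.27 after 30 days (adjusted p = 0.0252). Of 20 tested TGF-beta target genes outside the map, 0 were called without the block and 2 rose with it after 30 days. The median log2 fold change of the 20 was 0.40 after 5 days (14 above 0 and 6 below) and 0.56 after 30 days (15 above 0 and 5 below). Over all 19622 genes tested, 9694 and 9679 were above 0. Some rises rested on 1 library, such as that of ccn1 after 30 days, at 211, 1359 and 323 CPM. Of the 2 called TGF-beta target genes, the repressor gene snai2 rose by 2.48 ± 0.41 on the log2 scale (edgeR adjusted p = 0.0354 with the block, 0.194 without). The matrix and actin genes of the list did not share 1 direction, and those given here were named after their values were seen. The tagln genes were at 0.57 and 0.96 and the loxl2a genes at 1.93 and 2.11 after 30 days without the block, and not called. The collagen genes and acta2 were below 0 at both times and not called. Without the block, col1a1a, col1a1b and col1a2 were at −0.37 to −0.88 after 30 days, and acta2 at −2.43 ± 0.99. With the block acta2 was at −1.45 ± 0.85. Its 28°C level was carried by a single library, with 1.77, 1.37 and 20.2 CPM there against 1.36, 1.86 and 1.07 CPM after 30 days. Of 10 tested secreted BMP modulators outside the map only fstl1a was called, after 30 days with the block (2.0 ± 0.37, adjusted p = 0.0461). Of 8 tested BMP target genes outside the map none was called at either time in either edgeR fit, with 0 calls by DESeq2. Without the block, the unadjusted edgeR p was under 0.05 for 0 of the 8 after 5 days and 1 after 30 days. With the block it was under 0.05 for 2 at each time, all higher, beside 16.8% and 19.8% of all genes.

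MeDIP-seq reads were counted on peaks called by the authors, at coordinates of the Zv9 (danRer7) build. Reads on all peaks were 2952954 in the control, 2465050 after 5 days and 2406158 after 30 days. With 1 pooled library per condition there is no replicate, so a call compares libraries and not conditions. A peak was called when Fisher's exact test of its reads reached a false discovery rate of 0.01 or less and the ratio of RPM (reads scaled to the total on peaks), with 1 added, was at least 2 or at most 0.5. The lowest count above 0 was 3, 2 and 3 reads in the control, 5 day and 30 day libraries, so a peak held either 0 or several reads. Whether a 0 marks a lack of reads or a peak not scored in that library was not tested.

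Of the 285 peaks of the pathway genes, 64 were called after 5 days (35 higher and 29 lower), or 22.5%, against 23.7% of all peaks. After 30 days, 59 were called (36 higher and 23 lower), or 20.7%, against 20.2% of all peaks. Of these calls, 57 and 58 rested on a peak with no read in either the control or the cold library, which is 89.1% and 98.3% of the calls, beside 90.4% and 98.7% of the calls over all peaks. Reads in all 3 libraries were held by 130 of the 285 peaks (45.6%), beside 47.7% of all peaks, and when those alone were tested 3 were called after 5 days and 0 after 30 days, against 3.3% and 0.103% of all such peaks. Introns held 172 of the peaks, exons 74, promoters 24 and downstream regions 15. After 30 days, 2 of the 24 promoter peaks were called (8.33%), beside 19.7% of all promoter peaks, and after 5 days 7 were called (29.2%), beside 22.6%.

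The ligand genes called in RNA had few peaks. The only peak of inhbb, downstream of the gene at chr9:38028601-38029502, held 14, 14 and 13 reads in the control, 5 day and 30 day libraries, and lft2 had none.

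**Figure D5:**
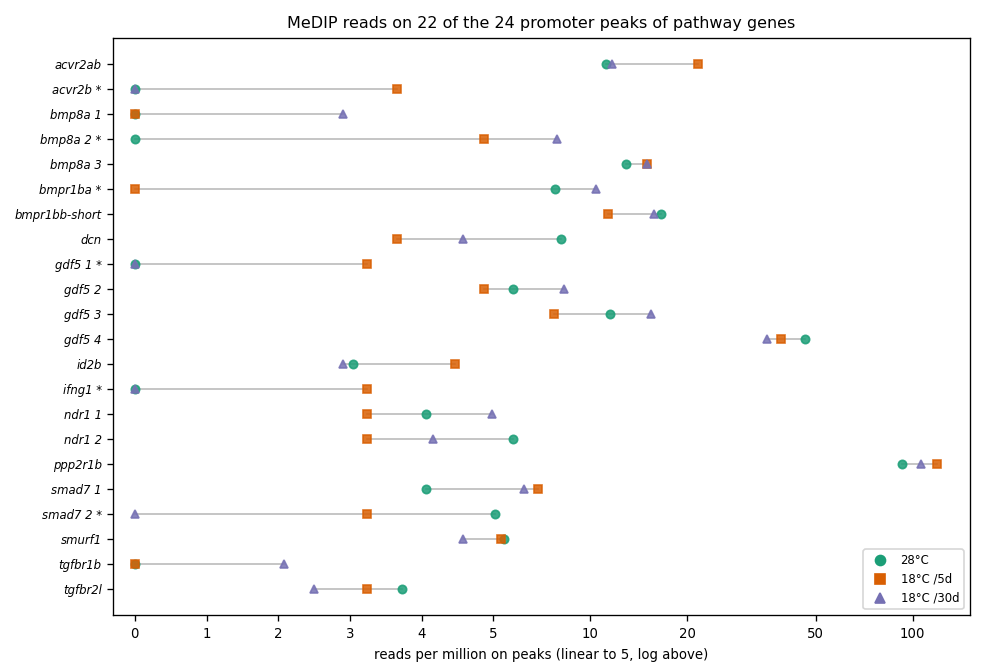
RPM on peaks (x axis, linear to 5 and log above) for 22 of the 24 promoter peaks of pathway genes in the 3 MeDIP libraries; an asterisk marks a peak called at 1 or both cold times, and numbers tell apart peaks of 1 gene. The called peaks drawn, such as those of acvr2b, ifng1 and bmpr1ba, are at 0 in 1 or more libraries.

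Peaks called in the same direction against 28°C at both cold times share the 28°C library, and the 15 with the largest ratios all had a 0. In 8 of them the 0 was at 28°C. The largest ratio was that of a bmp8a promoter peak at chr19:36586992-36587546 with 0, 12 and 19 reads in the control, 5 day and 30 day libraries. With 3 reads in place of the 0 at 28°C, its RPM would be 4.79-fold and 7.77-fold higher, which covers counting error only and is no lower bound if the peak was not scored there. With the lowest nonzero count of each library in place of its zeros, it was called after 30 days only. The bmp8a gene itself had a mean of 0.333 RPKM at 28°C, 0.490 after 5 days and 0.229 after 30 days. The next were intron peaks of bmpr1ab (chr12:27573179-27573962, with 0, 17 and 14 reads) and of gdf5 (chr6:52607829-52608689, with 0, 11 and 15 reads). Intron peaks of tgfbr1a, bmpr2b, ppp2ca, smad7 and zfyve9a had 9 to 12 reads in each cold library.

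In the other 7 both cold libraries were at 0, and 3 further peaks of this kind tied with the last of them and are not named. These were intron peaks of zfyve16 (chr10:3014818-3015423, 17 reads at 28°C), smurf2 (chr3:25424970-25425520, 15 reads), smurf1, bmpr1aa, bmp4, tgfbr2 and bmpr2b, the last 5 with 11 to 14 reads at 28°C. With 3 reads in place of the 0 in each cold library, the zfyve16 peak would be 4.73-fold lower by day 5 and 4.62-fold lower by day 30. With the lowest nonzero count of each library in place of its zeros, it was called at neither time. Intron peaks of bmpr2b were thus called in both directions.

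A peak called at both times with reads in all libraries, named after its values were seen, lay in an intron of the type II BMP receptor gene bmpr2a at chr6:12749955-12752590. It held 26, 97 and 49 reads, which is 4.47 times the RPM of 28°C after 5 days and 2.31 times after 30 days. Its 30 day call was lost when only peaks with reads in all 3 libraries were tested. The same call was lost when the lowest nonzero count of each library replaced its zeros over all peaks. RNA of bmpr2a was 3.67, 3.07 and 3.36 RPKM in the 3 conditions and was not called. The deepest called peak, in an intron of bmpr1ab at chr12:27545744-27549558, held 238 reads at 28°C, 91 after 5 days (0.458 times the RPM) and 168 after 30 days (0.866 times). Further peaks with reads in all 3 libraries that were called after 5 days only were higher in an intron of bmp4, an intron of smurf2 and an exon of smad7 and lower in an intron of zfyve16. None of these further peaks was called when zeros were replaced in that way, while the deep bmpr1ab peak was still called after 5 days.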

How the data were processed

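RNA-seq was done on 9 libraries, 3 each of ZF4 cells of the control and both cold groups, and MeDIP-seq on 1 pooled library per condition. The RNA aligner and counter are not given in the sources used here. The submitters' processing notes name Bowtie2, bedtools and danRer7, and by the study's methods MeDIP reads were aligned to danRer7, MACS peaks were called per library, and the peak sets were merged before reads were counted on them. The RNA table as deposited by the authors holds counts per gene, gene length, RPKM and TPM values, and the counts were used. The authors' peak table holds read counts per peak, RPM values, and ratio, p-value and false discovery columns of their own comparisons, as the RNA table does too. These comparison columns were not used, nor was the input library. Of the 62 genes, 52 had a symbol in the reference name table, and the rest took the best protein match listed in the file.

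Counts were filtered with filterByExpr, scaled by TMM and tested with edgeR 4.0.16 (R 4.3.3) in 1 quasi-likelihood fit of the 9 libraries, with Benjamini-Hochberg adjustment over 19622 genes. Normalised CPM are TMM-scaled, and RPKM divides them by gene length. Labels do not say whether libraries came from separate cultures, so p-values measure the spread between these libraries. Titles carry replicate numbers 1 to 3 in every condition, and the deviations of same-numbered libraries correlated by 0.266 to 0.672 in all 9 pairs, so the numbers were taken to pair them. Not every library correlated best with its own number. Number 1 and number 2 libraries of different conditions correlated by 0.133 to 0.513, for example 0.513 between the first 28°C and the second 30 day library and 0.409 between the second 5 day and the first 30 day library, so these numbers are less clearly matched than number 3. Fisher's test was run on peak reads over 160561 peaks. Scripts were tested on simulated data. Alternatives were DESeq2 1.42.0, other scaling, filters, blocks, left-out libraries and peak thresholds. The naming rule took pathway genes called without or with the block, the most abundant gene of each role by mean CPM, up to 3 called genes per outside list, and up to 15 peaks, first those called in 1 direction at both times, by the size of the ratio. The values of 1 pathway gene and of 1 gene of an outside list are not reported here or drawn in the figures, and both are in the counts. Pathway genes and lists were chosen with earlier results of these data known.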

Additional observations from a re-analysis of the deposited data

How the results depend on the processing

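By edgeR without a block no pathway gene was called at any comparison, and that count of 0 was kept with upper-quartile scaling, without the filter on low counts, with only the libraries compared, with the block after 5 days and with any single library left out. The replicate block gave 3 calls after 30 days (inhbb and lft2 among them) and changed no other call. Leaving out replicate 3 of all conditions gave 1 (inhbb), so the counts over left-out libraries ran from 0 to 1 after 30 days and were 0 after 5 days. DESeq2 called 2 genes after 5 days and 5 after 30 days. DESeq2 with the replicate number as a term, added after seeing the data, called 4 (5.7% of all genes) and 6 (8.26%). The block with 1 replicate number left out, also added then, called 0. In all of these the difference between cold times stayed at 0, and no named gene reversed against 28°C while called. The cause of these differences was not tested. Fits that leave some libraries out also hold fewer libraries. The median log2 fold change of the 55 genes after 30 days moved from −0.07 to 0.31 without replicate 3 of all conditions.

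Of the peak calls, 64 after 5 days and 59 after 30 days (23.7% and 20.2% of all peaks) became 3 and 0 (3.3% and 0.103% of all peaks tested) when only peaks with reads in all 3 libraries were tested, 8 and 2 (4.7% and 1.23%) with the lowest nonzero count of a library in place of its zeros, and 18 and 12 (8.1% and 7.26%) at a false discovery rate of 0.001 and a 4-fold ratio. A pseudocount of 0.1, totals scaled by the median ratio and a minimum of 10 reads left the counts within 1.5 times. The minimum of 10 reads changed the balance of directions, with 18 higher and 36 lower after 5 days, against 35 and 29 without it. After 30 days it gave 25 higher and 23 lower, against 36 and 23. Of all peaks tested it called 29.8% and 22.2%. With 1 pooled library per condition and 2406158 to 2952954 reads on peaks, the 15 peaks called at both times with the largest ratios rested on 9 to 19 reads in each library that held any.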
